A study of Mus musculus with 6 samples.

Results

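The tricarboxylic acid cycle burns acetyl groups in the mitochondrial matrix and passes their electrons to the respiratory chain, and several of its steps have a sister enzyme in the cytosol. Transcripts of 9 enzymes of the cycle and its sister reactions were followed in chondrocytes, the cells of cartilage, from mice. The 9 genes (Cs, Idh1, Idh2, Idh3a, Ogdh, Sucla2, Fh1, Mdh1 and Mdh2) were taken by symbol from a count table of 23867 genes, and each of the 9 was present and passed the filter on low counts, as did 15028 genes in all. The RNA came from 3 wild-type libraries (WT1 to WT3, genotype label MFN2wt) and 3 libraries of a knockout (columns CRE1 to CRE3, genotype label MFN2Col2a1-/-), a label that joins Mfn2, the gene of the mitochondrial fusion protein mitofusin 2, with Col2a1, the gene of the main cartilage collagen. The sources used here do not give the animals' age, sex or strain, the construct behind the CRE columns, or whether the libraries of a group are separate animals or cultures. A p-value therefore reflects only how these 6 libraries scatter, which may be technical.

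Citrate synthase feeds acetyl groups into the cycle, isocitrate dehydrogenases and the 2-oxoglutarate dehydrogenase complex release carbon dioxide, and succinyl-CoA ligase, fumarase and malate dehydrogenase return the carbon skeleton to oxaloacetate. In chondrocytes, which live with little oxygen, glycolysis is the main source of energy, and the cycle also supplies citrate, glutamate and reducing power for synthesis.

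Levels are given as CPM, read counts scaled to a common library size with TMM factors, which correct for a few genes taking a large part of the reads. Changes are log2 fold changes of knockout against wild type with their standard error (SE), ± values are SDs over n = 3 libraries, and a gene was called where edgeR's quasi-likelihood test, adjusted over all 15028 genes, gave a value under 0.05. The libraries held 31481779 to 40152687 counts, and the 9 members together held 26414 to 40513 of them. Mfn2 itself dropped from 107 ± 0.937 CPM in wild-type libraries to 60.0 ± 3.78 CPM in knockout libraries (−0.84). Scaling matters for small changes here: scaling by total counts alone moves the median of all genes by −0.209 on the log2 scale relative to TMM factors, and smaller differences have to be read against that shift.

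Of the 9 members, 2 were lower in the knockout (Idh1 and Idh2), 3 were higher (Mdh2, Mdh1 and Cs) and 4 were not called (Idh3a, Ogdh, Sucla2 and Fh1). Over all genes tested, 62.7% were called, 32.1% as lower and 30.7% as higher, so 5 calls among 9 is near the background. The median log2 fold change of the members was 0.079, against −0.021 over all genes. The changes ran from −1.35 for Idh2 to 0.33 for Mdh2. The groups did not overlap for 5 members, again 2 lower and 3 higher, where 67.1% of all genes tested had separate groups (34.8% lower and 32.3% higher). Only the falls of Idh1 and Idh2 and the rise of Mdh2 stayed called in the same direction under each of the 19 other settings tried. The rises of Mdh1 and Cs did not: with total counts alone Mdh1 stood at −0.080 and Cs at −0.12, and there 7 members were called lower and 1 higher. Under that scaling 69.3% of all genes tested were called, and only 26.8% of those calls were higher.

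**Figure D1:**
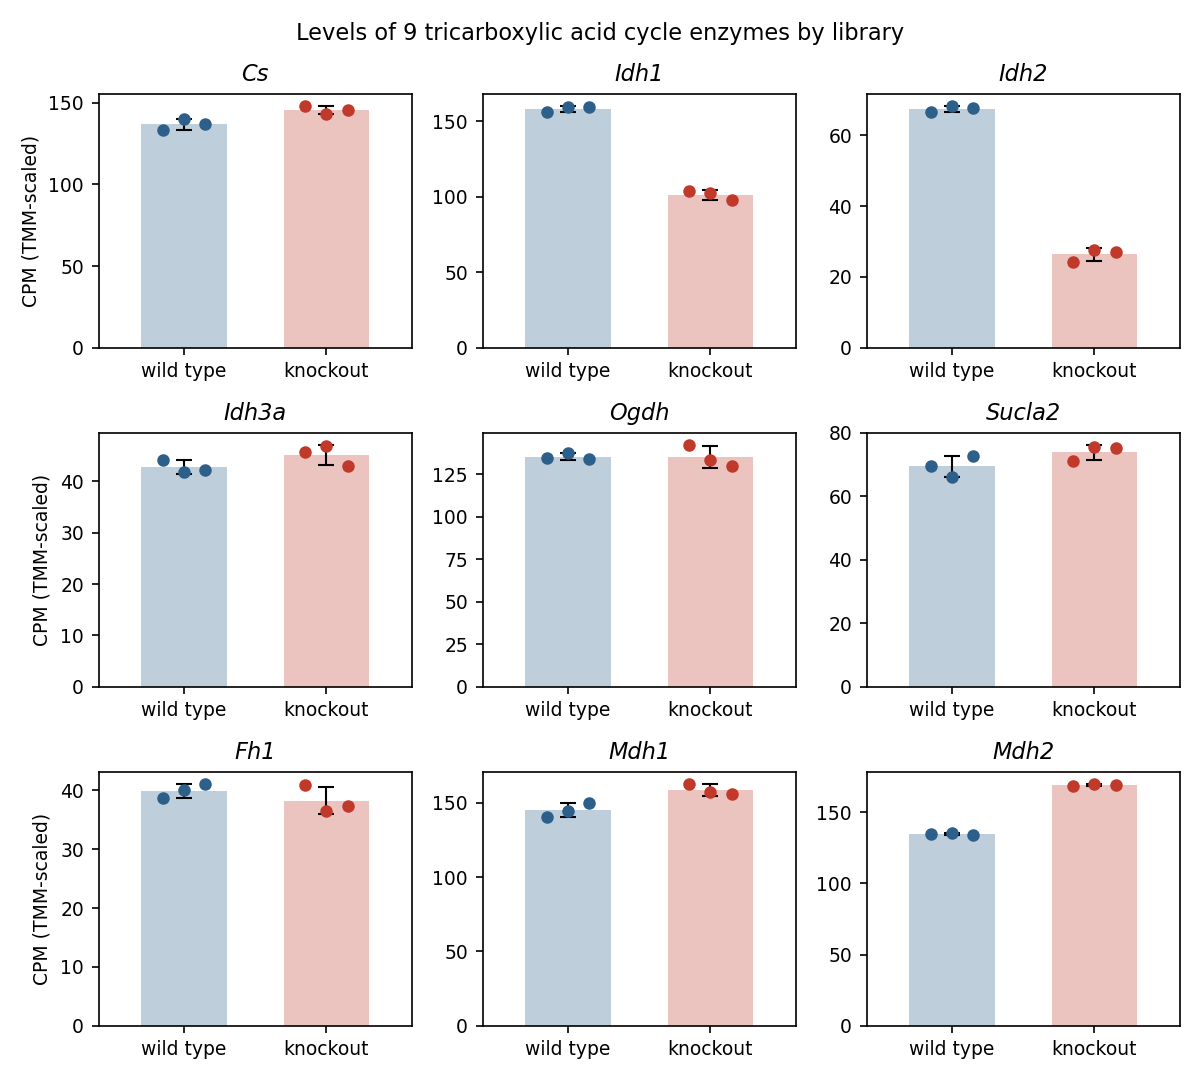
TMM-scaled CPM of each member in the wild-type and knockout libraries; points are libraries, bars are means and error bars are SDs over 3 libraries, and every axis starts at 0. The knockout points of Idh1 and Idh2 lie far under those of the wild type, the Mdh2 points lie above, and the other panels differ little.

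The promoters of the 3 members that kept their call under every setting are shown, since Idh1 and Idh2 fell and Mdh2 rose. Each is the 250 bases before an annotated transcript start from RefSeq on GRCm38.p6, a build other than the GRCm39 named for the counts. It is written 5′ to 3′ on the strand of the gene, with matches to 6 short motifs in capitals. Idh2 lies at chr7:80115351-80115600 (minus strand), the starts of Idh1 at chr1:65186480-65186729 and chr1:65179143-65179392 (minus strand), and Mdh2 at chr5:135778399-135778648 (plus strand).
Idh2: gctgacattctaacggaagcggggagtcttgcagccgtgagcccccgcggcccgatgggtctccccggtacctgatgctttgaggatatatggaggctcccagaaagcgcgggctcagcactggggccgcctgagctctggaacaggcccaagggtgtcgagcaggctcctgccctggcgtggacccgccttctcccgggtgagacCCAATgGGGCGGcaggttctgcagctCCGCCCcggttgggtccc
Idh1, upstream start: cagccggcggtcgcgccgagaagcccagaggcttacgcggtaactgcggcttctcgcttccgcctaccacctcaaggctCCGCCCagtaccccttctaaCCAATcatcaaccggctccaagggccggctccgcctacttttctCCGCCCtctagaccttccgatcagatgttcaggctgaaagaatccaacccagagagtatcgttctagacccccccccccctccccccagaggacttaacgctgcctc
Idh1, downstream start: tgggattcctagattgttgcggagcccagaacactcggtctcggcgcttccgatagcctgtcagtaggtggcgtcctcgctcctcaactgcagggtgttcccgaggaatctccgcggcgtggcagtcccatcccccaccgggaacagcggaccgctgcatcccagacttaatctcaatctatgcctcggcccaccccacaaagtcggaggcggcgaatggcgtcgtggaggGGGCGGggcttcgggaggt
Mdh2: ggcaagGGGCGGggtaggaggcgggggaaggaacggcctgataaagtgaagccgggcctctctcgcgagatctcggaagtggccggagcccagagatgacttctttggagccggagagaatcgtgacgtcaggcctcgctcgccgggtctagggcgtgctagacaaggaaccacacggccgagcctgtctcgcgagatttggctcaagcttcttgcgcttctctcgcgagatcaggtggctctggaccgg
The capitals in these 4 windows mark the GC box (GGGCGG) and the CCAAT box (CCAAT), on either strand. Idh2 holds 2 GC boxes and 1 CCAAT box, the upstream start of Idh1 also 2 and 1, and the downstream start of Idh1 and Mdh2 1 GC box each. Promoters of 8 of the 9 members, 14 windows in all, were in the table. A GC box stood in 10 of the 14 windows, against 32.7% of the 32851 promoter windows of the table. At least 1 window of each of the 8 members held it. A CCAAT box stood in 9 of the 14 windows, from 6 members, against 33.8% of all windows.

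The other 4 motifs were not found in the windows printed. The hypoxia response core ACGTG stood in 7 of the 14 windows, from 2 members, Ogdh and Mdh1 (16.6% of all windows). The NRF1 motif TGCGCA stood in 2 of the 14 windows, both from 1 member, Ogdh (6.43% of all windows). The ERR motif AAGGTCA (4.08% of all windows) and the ETS site CCGGAAG (6.91%) stood in none of the 14 windows. Several windows of Ogdh overlap one another, and members with several starts had more windows to hold a match.

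Idh2, the NADP-dependent isocitrate dehydrogenase of the mitochondrial matrix, had the largest change. It stood at 24.3, 27.7 and 27.1 CPM in CRE1, CRE2 and CRE3, and at 66.5, 68.3 and 67.7 CPM in WT1, WT2 and WT3. The groups were far apart. The change of −1.35 (SE 0.053) corresponds to a 2.56-fold lower level, with an adjusted p of 3.34e-12. Called falls of at least 2-fold were found for 12% of all genes tested, so a fall of this size was not rare in these libraries.

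Idh1, the NADP-dependent enzyme of cytosol and peroxisomes, changed in the same direction by a smaller amount. The wild-type libraries held 156, 160 and 159 CPM, and CRE1, CRE2 and CRE3 held 104, 103 and 97.5. The groups were well apart, with a change of −0.64 (SE 0.037, adjusted p = 3.73e-10), a 1.56-fold lower level. Both NADP-dependent enzymes make NADPH outside the energy-yielding route of the cycle, whereas the NAD-dependent IDH3 enzyme carries out the step of the cycle proper.

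Idh3a encodes the catalytic subunit of that NAD-dependent enzyme. Its levels were 45.7, 46.9 and 43.0 CPM in CRE1, CRE2 and CRE3 and 44.3, 41.8 and 42.3 CPM in WT1, WT2 and WT3. The groups overlapped, and the log2 fold change of 0.079 (SE 0.050) was not called (adjusted p = 0.181). The other IDH3 subunits, Idh3b (−0.10, adjusted p = 0.0647) and Idh3g (−0.035, adjusted p = 0.566), were not called either. The groups of Idh3b did not overlap, and it was called as lower in 6 of the 19 other settings, among them upper-quartile factors (−0.19) and total counts alone (−0.31). Idh3g was called as lower in 5, at −0.13 and −0.24 under the same scalings.

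Mdh2, the malate dehydrogenase of the matrix that closes the cycle, was the member that rose most. It stood at 169, 170 and 169 CPM in CRE1, CRE2 and CRE3 and at 135, 135 and 134 CPM in the wild-type libraries. Within each group the spread was small, and the rise of 0.33 (SE 0.032, adjusted p = 2.47e-07) was 1.26-fold. Over the other settings it lay between 0.12 and 0.34, being 0.12 with total counts alone and in the fits on FPKM. Mdh1, the cytosolic malate dehydrogenase of the malate-aspartate shuttle, stood at 140, 145 and 150 CPM in the wild type against 163, 157 and 156 CPM in CRE1, CRE2 and CRE3. The groups were apart, and the rise of 0.13 (SE 0.037, adjusted p = 0.00607) was smaller than the shift between scalings. Its exons overlap those of Wdpcp on the opposite strand by 52 bases in GENCODE M21, where strand use in counting is not given, so part of its count is uncertain.

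Cs encodes citrate synthase, the entry step. It was at 148, 143 and 146 CPM in CRE1, CRE2 and CRE3 and at 134, 140 and 137 CPM in WT1, WT2 and WT3. The groups were apart by a narrow margin, and the rise of 0.090 (SE 0.035, adjusted p = 0.0363) was lost when WT1 (adjusted p = 0.156), WT3 (0.0912) or CRE3 (0.0554) was left out. A copy, Csl, matches the Cs transcript at 91.9% identity over 1522 bases, and it held 0 to 1 counts per library. The processed pseudogene Gm48254 matches Cs at 92.1% over 469 bases and has no entry in the count table. Reads that it shares with Cs were therefore not judged. At a minimum of 90% identity over 150 bases, the search of annotated transcripts found copies of no other member.

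The remaining members of the middle of the cycle were not called. Ogdh, the first subunit of the 2-oxoglutarate dehydrogenase complex, stood at 135, 138 and 134 CPM in the wild-type libraries against 143, 134 and 130 CPM in CRE1, CRE2 and CRE3, a difference of −0.0011 (SE 0.039, adjusted p = 0.982). CRE1 was its highest library and CRE3 its lowest, with the wild-type libraries between. Sucla2, the ATP-forming subunit of succinyl-CoA ligase, stood at 71.1, 75.4 and 75.1 CPM in CRE1 to CRE3 against 69.6, 66.0 and 72.7 CPM in WT1 to WT3 (0.090, SE 0.046, adjusted p = 0.104). The groups overlapped, and without CRE1 its rise was called (0.12, adjusted p = 0.0211). Fh1, the fumarase, stood at 40.8, 36.4 and 37.4 CPM in CRE1 to CRE3 and, overlapping them, at 38.7, 40.0 and 41.1 CPM in WT1 to WT3 (−0.064, SE 0.054, adjusted p = 0.319). With total counts alone Ogdh (−0.21), Fh1 (−0.27), Idh3a (−0.13) and Sucla2 (−0.12) were called as lower, and with upper-quartile factors Fh1 was (−0.16, adjusted p = 0.0206).

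**Figure D2:**
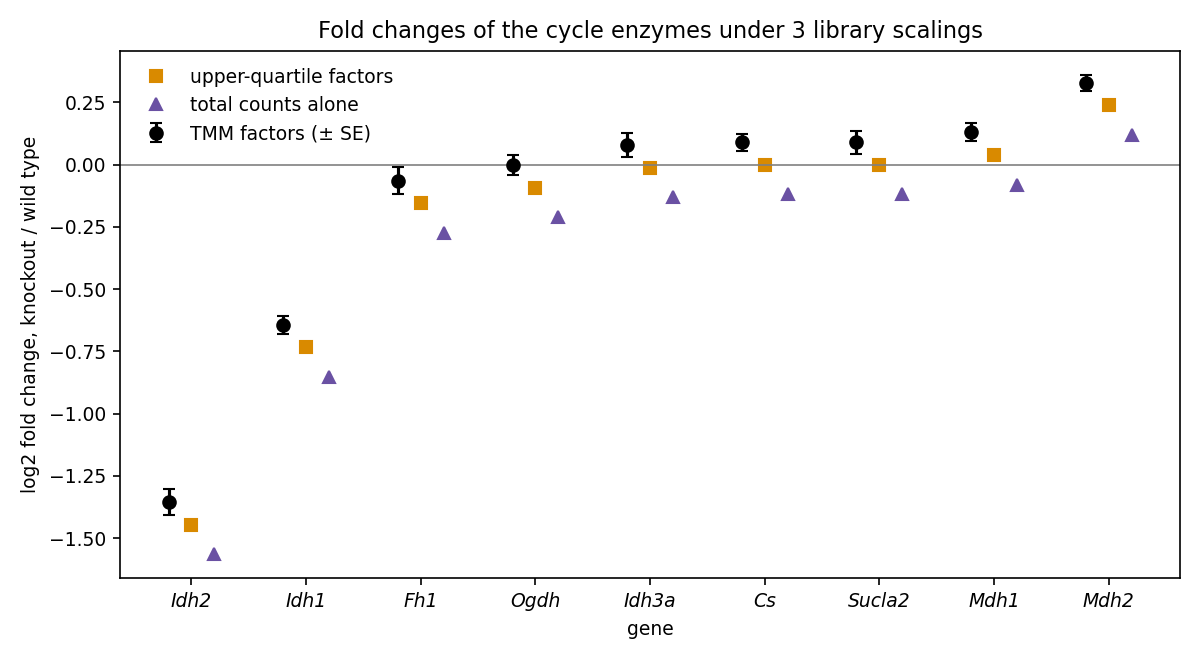
Log2 fold change of each member with TMM factors (circles, error bars are SE), upper-quartile factors (squares) and total counts alone (triangles). Idh2 and Idh1 lie under 0 and Mdh2 above 0 under all 3 scalings, while Cs, Idh3a and Sucla2 cross 0 with upper-quartile factors and Mdh1 with total counts alone.

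Ratios of members within a library do not depend on how libraries are scaled. For 4 ratios, counts of one gene were divided by counts of the other in each library, and the groups were compared with an exact two-sided permutation test, which for 3 libraries against 3 cannot give a p below 0.10. All 4 ratios had groups that did not overlap, and each reached that smallest p (0.10, and 0.10 after adjustment over the 4). Of single genes tested, 67.1% had separate groups, and the share among ratios of other gene pairs was not computed. The ratios that hold Idh2 share its fall.

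The ratio of Idh2 to Idh1 was 0.234, 0.269 and 0.278 in CRE1, CRE2 and CRE3 and 0.427, 0.428 and 0.425 in WT1, WT2 and WT3. The matrix enzyme thus fell by more than its cytosolic counterpart, by 0.72 on the log2 scale. The ratio of Idh2 to Idh3a, the NADP- and NAD-dependent enzymes of the matrix, was 1.50, 1.63 and 1.60 in WT1 to WT3 and 0.532, 0.590 and 0.631 in CRE1 to CRE3, a difference of −1.44 on the log2 scale. More Idh2 than Idh3a reads were counted in each wild-type library and fewer in each knockout library. In the deposited FPKM, which divides by gene length, Idh2 was below Idh3a in every library. That ratio was 0.650 to 0.707 in the wild type and 0.230 to 0.273 in the knockout. Which gene was higher in the wild type therefore depends on the gene length used.

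The ratio of Mdh2 to Mdh1 was 1.03, 1.08 and 1.08 in the knockout libraries and 0.961, 0.934 and 0.894 in the wild-type libraries, a difference of 0.20. The matrix form of malate dehydrogenase rose relative to the cytosolic form, while among the NADP-dependent isocitrate dehydrogenases the matrix form fell relative to the cytosolic form. The ratio of Sucla2 to Suclg2, the subunits that make succinyl-CoA ligase form ATP or GTP, was 1.92, 1.70 and 1.96 in WT1 to WT3 and 2.19, 2.63 and 2.90 in CRE1 to CRE3, a difference of 0.46. CRE1 was the knockout library nearest to the wild type in the Mdh2 and Sucla2 ratios.

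**Figure D3:**
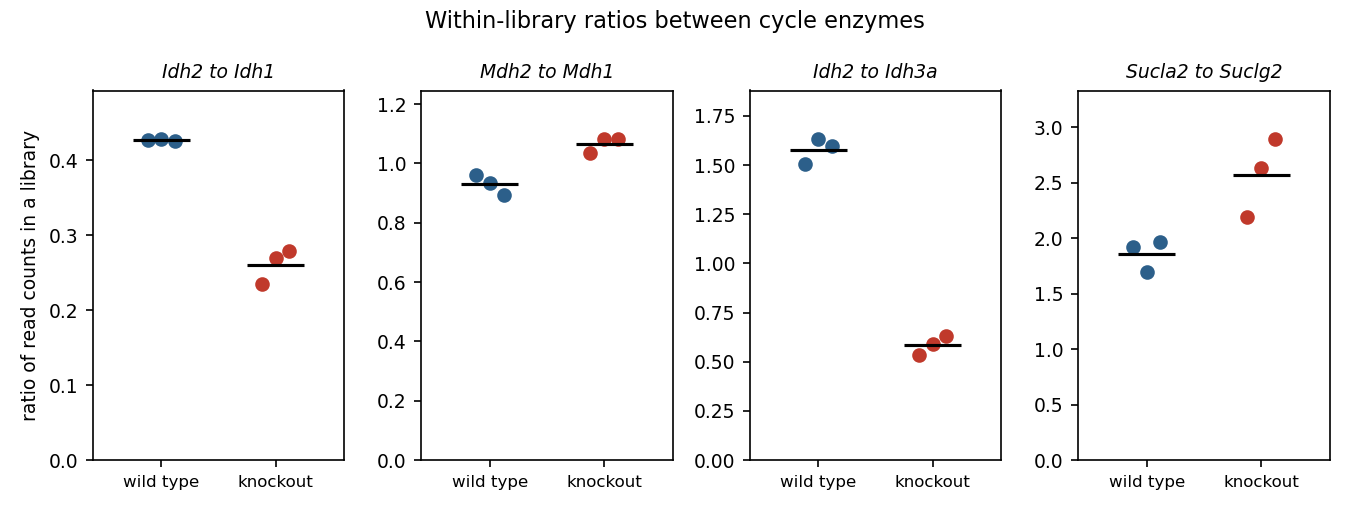
Ratio of the read counts of 2 genes within each library; points are libraries, lines are means, and each axis starts at 0. The ratios of Idh2 to Idh1 and to Idh3a are lower in each knockout library, and those of Mdh2 to Mdh1 and Sucla2 to Suclg2 are higher in each knockout library.

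As a share of the 9 members' summed counts, Idh2 shrank from 7.26% ± 0.053 to 2.95% ± 0.239 and Idh1 from 17.0% ± 0.066 to 11.3% ± 0.228. The largest share belonged to Mdh2 in the knockout (18.9% ± 0.325) and to Idh1 in the wild type. The 9 genes summed to 930 ± 10.2 CPM in wild-type and 894 ± 13.8 CPM in knockout libraries. These shares are fixed to a sum, so the smaller part of Idh1 and Idh2 raises the others.

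Levels of different genes were compared per length with the deposited FPKM (reads per kilobase of gene, scaled to the library's reads). In the wild type the order was Mdh2 (113 ± 0.444 FPKM), Mdh1 (79.6 ± 2.76), Idh1 (69.7 ± 1.03), Cs (49.4 ± 1.24), Sucla2 (31.0 ± 1.52), Fh1 (26.3 ± 0.850), Idh3a (19.1 ± 0.544), Ogdh (19.0 ± 0.302) and Idh2 (13.1 ± 0.196). In this order, neighbours had separate ranges over the 3 libraries, except Idh3a and Ogdh. In the knockout Idh1 (38.6 ± 1.28 FPKM) lay under Cs (45.5 ± 0.523), the order was otherwise the same, and Idh2 was again the lowest at 4.41 ± 0.327 FPKM.

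The order depended on the length used, most of all for Idh2. The deposited FPKM implies a length of 5.556 kb for Idh2, while all its exons in GENCODE M21 cover 2.588 kb and its coding sequence 1.356 kb. Per kilobase of coding sequence, a choice made after seeing the data, Idh2 stood sixth of the 9 in the wild type (49.8 ± 0.685 CPM per kb, overlapping Sucla2, the fifth) and ninth in the knockout (19.4 ± 1.33 CPM per kb). On that scale Mdh1 (144.7 CPM per kb) stood above Mdh2 (132.8) in the wild type, with separate ranges, Ogdh stood above Idh3a in both groups, and Fh1 (26.2) was the lowest in the wild type. The length of a gene is the same in all libraries and does not enter its fold change. The reads counted do, and the implied length of Ogdh (7.669 kb) also exceeds its GENCODE M21 exons (5.456 kb). The search for overlapping genes used those exons, so sequence counted beyond them for Idh2 and Ogdh was not checked. Its part in their fold changes was not tested.

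Another 12 genes of the cycle behaved like most of the members, with small changes in both directions. In this list 3 were higher, 5 were lower and 4 were not called, and the median log2 fold change was −0.069. Of all genes tested, 62.7% were called. The exception in size was Ogdhl, a relative of Ogdh best known from brain, which fell from 32.7 ± 0.030 to 14.5 ± 0.900 CPM (−1.17, SE 0.063, adjusted p = 1.51e-10). Ogdhl fell while Ogdh was not called. Suclg2, the GTP-forming partner of the ligase, fell from 37.4 ± 1.37 to 29.0 ± 3.27 CPM (−0.37), and Suclg1, the subunit that both forms share, was at −0.011 (adjusted p = 0.863).

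The rest of this list stayed within 0.21 of 0 on the log2 scale. The 2-oxoglutarate dehydrogenase subunits Dlst (0.21) and Dld (0.20) and the succinate dehydrogenase subunit Sdhd (0.20) were called as higher with TMM factors, but stood at −0.00087, −0.0100 and −0.0091 with total counts alone. The succinate dehydrogenase subunits Sdha (−0.15) and Sdhc (−0.14) and the cytosolic aconitase Aco1 (−0.18) were called as lower, and Sdhb (0.11, adjusted p = 0.0540) was not called. Without CRE3 the call of Sdhc was lost (−0.11, adjusted p = 0.0636), and without CRE2 Sdhb was called (0.14, adjusted p = 0.0366), as it was with DESeq2 size factors (0.12). In the fits on FPKM Sdhb was called as lower (−0.098 with a pseudocount of 1). With total counts alone 8 of the 12 were lower and 0 higher. There 69.3% of all genes tested were called, and 26.8% of those calls were higher.

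Pyruvate reaches the cycle through the mitochondrial pyruvate carrier and the pyruvate dehydrogenase complex, whose kinases switch it off and whose phosphatases switch it on. The largest changes in this list were those of the kinases Pdk1, Pdk3 and Pdk4 and the phosphatase Pdp1. The kinase Pdk1, a known target of hypoxia signalling, rose from 136 ± 0.848 to 327 ± 2.64 CPM (1.27, SE 0.030, adjusted p = 6.28e-15). Pdk3 rose from 75.8 ± 3.90 to 224 ± 6.80 CPM (1.56, SE 0.042). The phosphatase Pdp1 fell from 244 ± 3.60 to 39.0 ± 1.29 CPM, a 6.27-fold difference (−2.65, SE 0.039, adjusted p = 3.06e-17). The calls of these 3 genes held in each of the 19 other settings. The kinases Pdk2 (−0.39) and Pdk4 (−1.15) were lower, so the 4 kinases did not move together.

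In this entry list of 13, 3 were higher, 5 lower and 5 not called, where 62.7% of all genes tested were called. Among its other genes, pyruvate carboxylase (Pcx), which makes oxaloacetate from pyruvate, rose from 54.8 ± 0.421 to 80.2 ± 2.17 CPM (0.55, SE 0.041). The complex subunit Pdha1 (−0.13) and the carrier subunit Mpc2 (−0.18) were called as lower. The groups of Mpc2 overlapped, and its call was lost without CRE2 (−0.14), CRE3 (−0.15), WT2 (−0.16) or WT3 (−0.14), with DESeq2 (−0.16, adjusted p = 0.0737) and against a 1.2-fold change. The log2 fold changes of Pdhb (0.078), Dlat (−0.0032), Pdhx (0.052), Mpc1 (0.0061) and the phosphatase Pdp2 (−0.15) were not called. Pdhb was called as higher when CRE3 was left out (0.12, adjusted p = 0.0475). With total counts alone Pdhb (−0.13), Dlat (−0.21), Mpc1 (−0.20) and Pdp2 (−0.36) were called as lower, making 9 of the 13 lower and 3 higher. Over all genes tested, 69.3% were called under that scaling, and 26.8% of those calls were higher.

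**Figure D4:**
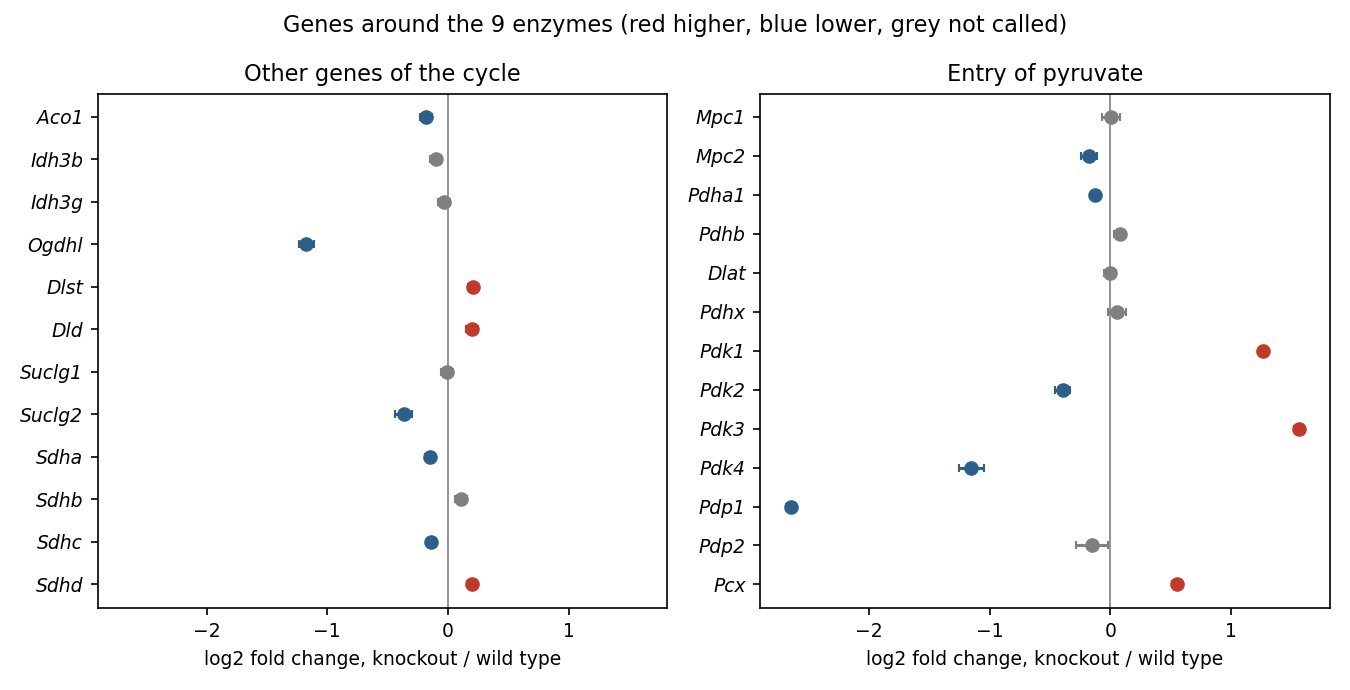
Log2 fold changes with SE for another 12 genes of the cycle (left) and the 13 genes of pyruvate entry (right) with TMM factors. Among the former Ogdhl stands apart at −1.17. Among the latter Pdk1 and Pdk3 lie above 1, Pcx at 0.55, Pdk4 at −1.15 and Pdp1 at −2.65, while the subunits of the enzymes cluster near 0.

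Of 19 genes that refill the cycle or export its intermediates, 8 were higher, 6 lower and 5 not called (median 0.022). The share called over all genes tested was 62.7%. Me2, the malic enzyme of the matrix that turns malate into pyruvate, rose from 47.4 ± 1.29 to 253 ± 11.0 CPM (2.42, SE 0.042, adjusted p = 1.66e-16), more than any other gene of these lists of the cycle. Acod1, which makes itaconate from a cycle intermediate, was low but rose from 1.84 ± 0.272 to 4.34 ± 0.454 CPM (1.23, SE 0.182). Pck2, the matrix enzyme that turns oxaloacetate into phosphoenolpyruvate, fell from 45.6 ± 0.660 to 23.6 ± 0.841 CPM (−0.95), and Me3, another mitochondrial malic enzyme, fell from 7.93 ± 0.910 to 4.28 ± 0.528 CPM (−0.89).

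Glycolysis gave a different picture from the cycle, with 16 of 17 listed genes higher and 1 lower and a median log2 fold change of 1.15. Over all genes tested, 30.7% were higher and 32.1% lower. The lactate exporter Slc16a3 (1.95), the glucose transporter Slc2a1 (1.86) and the hexokinases Hk2 (1.64) and Hk1 (1.59) rose most. The gene that fell was Ldhb (−0.81), the lactate dehydrogenase subunit that favours pyruvate, named after its value was seen. The members' median was 0.079 and that of the 12 other cycle genes −0.069 on the same scale. The difference between the lists was not tested.

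Markers of other cells moved over the same libraries. Over all genes tested, 62.7% were called, 32.1% as lower and 30.7% as higher. All 16 macrophage markers fell (median −4.23). Their summed level was 3437 to 3468 CPM in the wild type and 375 to 390 CPM in the knockout. Lyz2 fell from 1748 ± 24.9 to 229 ± 9.25 CPM and Mpeg1 from 210 ± 3.64 to 33.0 ± 2.14 CPM. All 16 proliferation genes fell (median −2.30, 615 to 631 against 181 to 188 CPM), among them Pcna (−0.56) and Rrm2 (−2.39). Of 14 chondrocyte markers, 13 fell and 1 rose (median −1.30, from −5.01 to 0.49, 8805 to 8988 against 3064 to 3194 CPM). Col2a1, the list's most abundant gene with Comp, fell from 3397 ± 71.3 CPM in the wild type to 509 ± 29.0 CPM in the knockout (−2.74). Comp fell from 1609 ± 9.43 to 1233 ± 39.1 CPM (−0.38). Markers of the labelled cell type were thus counted in both groups, and how many of the cells were chondrocytes was not tested. Fibroblast markers went both ways, with 5 higher and 3 lower of 9 (22478 to 22680 against 29238 to 30286 CPM), Col3a1 being at 0.72 and Col1a2 at −0.64. In bulk RNA, fewer cells of a type and less RNA per cell cannot be told apart. The part of these shifts in the falls of Idh1 and Idh2 and in the rise of Mdh2 was not tested.

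Markers of other tissues were also measured. Of all genes tested, 62.7% were called, 32.1% as lower and 30.7% as higher. Skeletal muscle markers summed to 27.7 to 32.3 CPM in the wild type and 20.97 to 46.1 CPM in the knockout, with Mylpf at 0.63 and Acta1 at 0.43 (adjusted p = 0.120), which was called without CRE2 (0.75). Adipocyte markers summed to 77.6 to 82.9 and 207 to 224 CPM, mostly Fabp4 (1.73), while Adipoq (0.20, adjusted p = 0.0744) was called only without CRE1 or WT2 (0.27 each). Endothelial markers summed to 6.64 to 8.38 and 12.6 to 14.0 CPM, with Plvap at 1.62 and Tek at −0.14 (adjusted p = 0.575). Of 5 endothelial markers tested, 2 were higher, 1 lower and 2 not called, with changes from −2.50 to 1.78. Of 8 muscle markers tested, 2 were higher and 6 not called (−0.32 to 0.87). Of 5 adipocyte markers tested, 1 was higher and 4 not called (−0.77 to 1.73). No listed marker that was in the table was at 0 in every library.

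The genes most like Idh2 across the 6 libraries, by the Euclidean distance between centred log2 CPM, were Eya4 (distance 0.049), Slc16a9 (0.059) and Itga1 (0.078). Their log2 fold changes were −1.38 (SE 0.051), −1.35 (SE 0.120) and −1.35 (SE 0.059). Slc16a9 was the least abundant of them, at 8.29 ± 0.333 CPM in wild-type and 3.24 ± 0.214 CPM in knockout libraries. With 2 groups of 3 libraries this measure mostly finds genes with the same difference between the groups.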

How the data were processed

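Per the labels' protocols, TRIzol-extracted total RNA from chondrocytes went into VAHTS libraries. The build GRCm39 and the tools fastp, HISAT2 and HTSeq are named, with neither version nor role, in the submitters' processing notes. The sources used here give no strand setting, annotation or filter. Read counts by gene symbol, in whole numbers, and FPKM values were deposited by the authors in separate tables. Dividing the counts by library total and deposited FPKM gave the same gene length in every library, within 0.1%, for all 11533 genes with at least 50 counts in each library.

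Wild-type columns matched sample titles. Columns CRE1 to CRE3 were taken as unnumbered knockout replicates, since their names match no single title. Counts were tested with edgeR 4.0.16 in R 4.3.3 (two-sided quasi-likelihood test with group as the term, TMM factors, Benjamini-Hochberg adjustment; genes were kept by filterByExpr at a minimum count of 10), checked on simulated data. Every pair of same-group libraries differed beyond counting noise (chi-square over degrees of freedom 3.19 to 8.09), and each library counted as 1 replicate.

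The members and lists were chosen with earlier results of these data known. Named were the members, Mfn2, all tested genes of the other cycle and pyruvate entry lists, the 4 largest called changes with separate groups in the refilling and glycolysis lists, the 2 most abundant of each marker list, and the 3 genes most like Idh2. In the cycle list and in the refilling list, 1 gene each was left out and is not reported here. Alternatives were DESeq2 1.42.0 and its size factors, limma-voom (limma 3.58.1), upper-quartile factors, total counts, removal of the 20 most abundant genes, other filters, a minimum change of 1.2-fold, leaving out each library, a replicate block, and limma on log2(FPKM + 1) or log2(FPKM + 0.1).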

Additional observations from a re-analysis of the deposited data

How the results depend on the processing

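The falls of Idh1 (−0.60 to −0.85) and Idh2 (−1.29 to −1.56) and the rise of Mdh2 (0.12 to 0.34) kept their call in each of the 19 alternatives. The 4 within-library ratios kept their direction in each of 7 alternatives, which adds no support. Leaving out a library could not reverse ratios whose groups did not overlap, nor could dividing by a constant gene length. Of the 59 other named genes, 34 kept direction and call in every alternative run. The smaller changes followed the scaling. The share of all genes tested that was called was 69.3% with total counts alone, with 26.8% of those calls higher. It was 74.1% with log2(FPKM + 1), 73.8% with log2(FPKM + 0.1) and 42.0% with log2(FPKM + 1) without a filter. Upper-quartile factors gave 64.2% and the test against a 1.2-fold change 39.0%. Depth set no floor for the members, whose lowest count in a library was 707 (Idh2 in CRE1). With total counts alone 2789 of the 15028 genes tested were higher and 7627 lower, and 8 members were called, 1 higher and 7 lower. Values were then −0.12 for Cs, −0.13 for Idh3a, −0.21 for Ogdh, −0.12 for Sucla2, −0.27 for Fh1, −0.080 for Mdh1, −0.00087 for Dlst, −0.0100 for Dld, −0.10 for Sdhb, −0.0091 for Sdhd, −0.20 for Mpc1, −0.13 for Pdhb, −0.16 for Pdhx, −0.0072 for Adipoq and −0.016 for Got2. Limma on log2(FPKM + 1) called 2354 genes as higher and 8 members, 1 higher and 7 lower, with Cs −0.12, Idh3a −0.12, Ogdh −0.20, Sucla2 −0.11, Fh1 −0.26, Mdh1 −0.078, Dlst −0.00032, Dld −0.010, Sdhb −0.098, Sdhd −0.0096, Mpc1 −0.19, Pdhb −0.13, Pdhx −0.14, Adipoq −0.0083 and Got2 −0.016. Without a filter these values were the same, with 2706 genes higher and 7328 lower and 1 member higher and 6 lower. With log2(FPKM + 0.1), 2345 genes were higher and 8 members called, 1 higher and 7 lower, with Cs −0.12, Idh3a −0.13, Ogdh −0.21, Sucla2 −0.12, Fh1 −0.27, Mdh1 −0.079, Dlst −0.00032, Dld −0.011, Sdhb −0.10, Sdhd −0.0097, Mpc1 −0.20, Pdhb −0.13, Pdhx −0.16, Adipoq −0.0092 and Got2 −0.017. With upper-quartile factors 1 member was higher, with Cs −0.0012, Idh3a −0.012, Sucla2 −0.00068, Fh1 −0.16, Mdh1 0.039, Mpc1 −0.085, Pdhb −0.013 and Pdhx −0.039. With DESeq2, and with its size factors in edgeR, Ogdh was at 0.013, Suclg1 at 0.0027 and Dlat at 0.010. Against a 1.2-fold change 5856 genes were called, 2724 higher and 3132 lower, and 3 members, 1 of them higher, while Cs (0.090) and Mdh1 (0.13) were not. Cs was also not called without a filter (0.084). Leaving out a library gave 0.072 to 0.12 for Cs, −0.034 to 0.042 for Ogdh, 0.054 to 0.12 for Sucla2, −0.055 to 0.020 for Suclg1, −0.078 to 0.0031 for Idh3g, −0.045 to 0.072 for Mpc1, −0.050 to 0.024 for Dlat, −0.23 to 0.00062 for Pdp2 and −0.31 to 0.12 for Tek. Beyond the scaling, which the total-count and FPKM values share, the cause was not tested.

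The numbers at the ends of the column names did not pair the libraries: deviations of same-numbered libraries correlated at −0.086, 0.055 and −0.095. With a replicate block on those numbers Cs (0.090, adjusted p = 0.0746) was not called, and the calls of the other 8 members were as without it.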

Other observations

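The genes of this paragraph and the next were picked from the refilling and export list after their values were seen. Not every called gene of that list is named. The citrate carrier Slc25a1 went from 77.3 ± 0.836 to 129 ± 3.72 CPM (log2 fold change 0.74, SE 0.038, adjusted p = 8.59e-11, edgeR quasi-likelihood test), and the ATP citrate lyase Acly from 163 ± 1.31 to 212 ± 8.25 CPM (0.38, SE 0.035). Me1, a cytosolic enzyme that makes NADPH from malate, rose from 119 ± 2.02 to 197 ± 6.70 CPM (0.72, SE 0.036), the opposite direction to the NADPH-forming Idh1 and Idh2. Nnt, which makes NADPH in the mitochondrion, was at −0.16 (adjusted p = 0.0285), a call lost without CRE2 (−0.16), CRE3 (−0.11), WT1 (−0.17) or WT3 (−0.14), with DESeq2 (−0.15, adjusted p = 0.0912) and against a 1.2-fold change. The calls of Slc25a1, Acly and Me1 held in all 19 alternatives.

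The cytosolic aspartate transaminase Got1 rose from 31.3 ± 0.377 to 41.3 ± 1.33 CPM (0.40, SE 0.049), a call that held in all 19 alternatives. Glud1, which makes 2-oxoglutarate from glutamate, fell from 194 ± 4.92 to 162 ± 3.24 CPM (−0.26, SE 0.034), a call lost only against a 1.2-fold change. The rise of Got2 (0.19) turned to −0.016 with total counts alone. The alanine transaminases Gpt (−0.25, adjusted p = 0.307) and Gpt2 (−0.067, adjusted p = 0.348) were not called.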
